A study of Mus musculus with 7 samples.

Results

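The genes described here encode the subunits of AMP-activated protein kinase (AMPK) and its metabolic partners in the mouse ovary. They comprise 6 AMPK subunit genes (Prkaa1, Prkaa2, Prkab1, Prkab2, Prkag1 and Prkag2), the upstream kinase gene Stk11, the target genes Acaca and Acacb, and the coactivator gene Ppargc1a. These 10 genes, of 55487 gene rows counted in each library, were chosen by name and function with earlier results of the same comparison in view. Their difference between the groups is therefore given as a description, with no p-value printed for any of them. Counts of members under a threshold are given only beside the share over all genes. All 10 were among the 18779 genes with enough counts to be tested. The seventh subunit gene, Prkag3, was not among the members and is given separately.

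The study asked which ovarian transcripts differ in the third generation of a mouse lineage founded by prenatal exposure to anti-Müllerian hormone (AMH), a model of polycystic ovary syndrome. Pregnant C57BL/6J F0 dams received PBS, or human recombinant AMH at 0.12 mg per kg per day, during late gestation. The 3 control libraries (CNTR) came from ovaries of daughters of the PBS dams, and the 4 PAMH F3 libraries from F3 females descended from the AMH dams through F1 and F2, with no further AMH given to the later generations. All females were collected at diestrus on postnatal day 60, and each library was an independent sample of whole ovary. The controls are of generation 1 and the PAMH mice of generation 3, so lineage and generation cannot be told apart. Because whole ovaries were sequenced, fewer cells of a type and less RNA per cell cannot be told apart either.

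AMPK is a heterotrimer that senses the energy state of the cell. A catalytic alpha subunit is joined to a beta scaffold, which binds glycogen and anchors the complex, and to a gamma subunit that binds adenine nucleotides. When AMP rises relative to ATP, the kinase LKB1 (the product of Stk11) phosphorylates the activation loop of the alpha subunit. Active AMPK then phosphorylates the acetyl-CoA carboxylases encoded by Acaca and Acacb and so lowers the production of malonyl-CoA. It also acts on PGC-1alpha (Ppargc1a), a coactivator of mitochondrial gene expression. In the ovary, AMPK is best known for its part in oocyte maturation and in granulosa cell steroidogenesis.

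The paralogous subunit genes are similar in sequence, so the question of which gene a read came from bears on every level below. The activation loop codons of the 2 alpha genes are shown because this is the stretch that LKB1 acts on. Capitals mark the bases at which the genes differ, and bases are written 5′ to 3′ in the coding strand from the GENCODE M21 transcripts.
Prkaa1 coding bases 502 to 582: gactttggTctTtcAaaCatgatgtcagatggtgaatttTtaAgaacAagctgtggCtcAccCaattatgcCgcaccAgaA
Prkaa2 coding bases 469 to 549: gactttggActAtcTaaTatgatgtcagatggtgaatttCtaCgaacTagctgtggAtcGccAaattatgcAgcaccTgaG
Over these 81 bases the genes differed at 13, and 0 of the 27 codons encoded another residue.

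The first coding bases of the beta genes are shown for contrast, since they begin the myristoylated amino terminus and differ in the encoded protein. Capitals again mark differing bases.
Prkab1 coding bases 1 to 60: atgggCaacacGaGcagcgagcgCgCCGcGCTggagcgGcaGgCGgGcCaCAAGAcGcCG
Prkab2 coding bases 1 to 60: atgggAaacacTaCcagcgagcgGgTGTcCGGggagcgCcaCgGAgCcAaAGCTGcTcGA
Here 24 of 60 bases differed, and 11 of 20 codons encoded another residue.

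The sequencing reads were 50 bases long. The longest run of identical coding bases was 35 for the alpha pair (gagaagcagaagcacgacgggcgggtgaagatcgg), 23 for the beta pair, 15 for the gamma pair and 29 for the carboxylase pair, each shorter than a read. None of the 50-base windows of the 6 subunit genes, Stk11 or Acacb occurred outside its own locus in the annotated transcripts. Of the other 2 members, Ppargc1a had 0.14% of its 50-base windows elsewhere and Acaca 30.4%. Of the Acaca windows, 29.2% were identical to windows of the processed pseudogene Gm5182 (mm10 chr12:10152142-10158233), which itself received 2 to 10 counts per library. Reads that fall in these windows align to more than one place, so the Acaca counts may miss part of its reads and its level is uncertain.

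Values are CPM, the counts of a gene scaled to a common total of gene counts per library with trimmed-mean-of-M-values factors. Each library held 32158174 to 35485021 gene counts. The lowest member count in any library was 132, for Ppargc1a, whose counting error is therefore the largest of the 10 genes. CNTR 2 stood apart in base composition, with a GC slope of 0.298 (the log2 change in level per 10% GC, relative to the mean of all libraries) against -0.119 to 0.045 in the other libraries. Adipocyte markers also varied: the summed CPM of 7 markers, all detected, was 585 to 1342 in CNTR and 249 to 893 in PAMH F3. Their values are given beside the members that they moved with.

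The catalytic subunits were dominated by Prkaa1 (alpha 1, ENSMUSG00000050697, chr15:5143861-5181899 on the plus strand of mm10). Prkaa1 stood at 101, 82.4 and 93.9 CPM in CNTR and at 96.7, 89.8, 89.2 and 97.0 CPM in PAMH F3. The groups overlapped, with the highest and the lowest value both in CNTR. The fitted log2 fold change, PAMH F3 minus CNTR, was -0.05 (SE 0.05, edgeR with 2 surrogate variables, n = 3 and 4). It turned to 0.01 (SE 0.09) with no surrogate variables and to 0.08 without CNTR 1.

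Prkaa2 (alpha 2, ENSMUSG00000028518, chr4:105029874-105109890, minus strand), whose product is the main catalytic form in skeletal muscle, was lower in count. Its values were 19.2, 17.8 and 27.5 CPM in CNTR and 23.6, 27.6, 22.0 and 27.0 CPM in PAMH F3. CNTR 3 lay among the PAMH F3 libraries, and the other 2 controls lay below all of them. A log2 fold change of 0.25 (SE 0.11) was fitted, and it ranged from 0.17 to 0.38 when single libraries were left out. Skeletal muscle markers were near 0 in both groups: 3 of 6 (Ckm, Myh1 and Myh4) were too low to be tested, and the sum of all 6 was 3.62 to 4.65 CPM in CNTR and 3.06 to 3.61 CPM in PAMH F3.

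Among the scaffold subunits, Prkab1 (beta 1, ENSMUSG00000029513, chr5:116013586-116024508, minus strand) was measured at 34.0, 45.5 and 36.0 CPM in CNTR. In PAMH F3 it was at 34.6, 38.5, 32.7 and 34.8 CPM. CNTR 2 was the highest library and the rest overlapped. PAMH F3 minus CNTR gave a log2 fold change of -0.05 (SE 0.10), or -0.13 with no surrogate variables. Leaving out CNTR 1 or CNTR 3 moved it to -0.21 or -0.12, and leaving out CNTR 2 or PAMH F3 3 turned it to 0.02 in both cases.

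Prkab2 (beta 2, ENSMUSG00000038205, chr3:97658193-97673812, plus strand) had the largest fitted difference of the 10 genes. It was at 86.4, 114 and 133 CPM in CNTR and at 123, 124, 123 and 148 CPM in PAMH F3. CNTR 1 was the lowest library and PAMH F3 4 the highest, while CNTR 3 exceeded 3 of the 4 PAMH F3 libraries. The means were 111.1 ± 23.5 CPM (SD, n = 3) and 129.7 ± 12.2 CPM (SD, n = 4), and the log2 fold change was 0.33 (SE 0.05). This value rested on one control: without CNTR 1 it was 0.07, and without CNTR 3 it was 0.38. It was 0.22 (SE 0.14) with no surrogate variables and 0.18 with offsets for GC content and length. CNTR 1 also had the highest adipocyte marker sum, at 1342 CPM.

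A sum of granulosa cell markers moved with Prkab2. The summed CPM of 6 markers, all detected, was 2777, 2948 and 5133 in CNTR and 3560, 3988, 3465 and 5166 in PAMH F3, and put the 7 libraries in the same order as Prkab2. This order was noticed after the values were seen. Most of the sum was Inha and Inhba: 1318 and 1155 CPM in CNTR 1, 2074 and 2526 CPM in PAMH F3 4. Neither gene alone kept the order. Inha was higher in CNTR 2 than in PAMH F3 1, at 1648 against 1497 CPM. Inhba was lower in CNTR 2 than in CNTR 1, at 936 against 1155 CPM. The single markers differed: Hsd17b1, a steroidogenic enzyme, was lowest in CNTR 1 at 140.0 CPM and highest in PAMH F3 4 at 288 CPM, whereas Foxl2, a granulosa transcription factor, was highest in CNTR 2 at 82.4 CPM. The part of adipocyte or granulosa cell RNA in the Prkab2 value was not tested.

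Of the nucleotide-binding gamma subunits, Prkag1 (gamma 1, ENSMUSG00000067713, chr15:98812797-98831521, minus strand) was at 77.9, 85.8 and 77.7 CPM in CNTR and 76.5, 77.8, 81.9 and 72.6 CPM in PAMH F3. The groups overlapped, and the log2 fold change was -0.03 (SE 0.05). Its coefficient of variation over the 7 libraries was 5.33%, the lowest of the 10 genes, against 17.3% for Stk11, the highest. Prkag1 shares 950 exonic bases with the antisense gene B130046B21Rik, which received 0 to 7 counts per library.

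Prkag2 (gamma 2, ENSMUSG00000028944, chr5:24862744-25100642, minus strand) is the gamma gene in which mutations cause a cardiac glycogen storage disease. It was at 72.4, 70.8 and 73.9 CPM in CNTR and at 75.4, 88.2, 80.2 and 80.0 CPM in PAMH F3. Every PAMH F3 library was above every control, and Prkag2 was the only one of the 10 genes whose groups did not overlap. Of all tested genes, 1.85% were separated with PAMH F3 higher and 2.4% with PAMH F3 lower, and nothing is read from the single member because the contrast was used in the choice. The gap was narrow, at 73.9 against 75.4 CPM. The log2 fold change was 0.17 (SE 0.07), ranged from 0.12 to 0.19 when single libraries were left out, and was positive in each of the 25 alternative fits. Prkag2 overlaps the antisense genes Prkag2os2 and Prkag2os1 by 795 and 142 exonic bases, and these received 3 to 7 and 1 to 8 counts per library.

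Prkag3 (gamma 3), a form known from glycolytic skeletal muscle, was close to the limit of detection. It was at 0.39, 0.45 and 0.34 CPM in CNTR and 0.37, 0.36, 0.14 and 0.38 CPM in PAMH F3, which corresponds to 5 to 15 counts per library. The log2 fold change was -0.39 (SE 0.43, edgeR adjusted p = 0.869), and no difference was detectable at this depth.

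Stk11 (LKB1, ENSMUSG00000003068, chr10:80115803-80130682, plus strand) varied most between libraries. It was at 80.7, 123 and 101 CPM in CNTR and at 79.7, 91.3, 111 and 84.2 CPM in PAMH F3. The groups overlapped almost wholly, and the log2 fold change was -0.00 (SE 0.07), or -0.15 (SE 0.16) with no surrogate variables. Without CNTR 1 it was -0.28, and without PAMH F3 3 it was -0.08. Stk11 has a GC content of 59.5%, the highest of the 10 genes. The 3 libraries with the highest GC slopes, CNTR 2, PAMH F3 3 and CNTR 3 at 0.298, 0.045 and -0.017, were also the 3 with the most Stk11. With offsets for GC content and length the log2 fold change was 0.04, so the sign of the Stk11 value depended on the fit. The part of base composition in the Stk11 values was not tested. Stk11 shares 232 exonic bases with Cbarp on the opposite strand, which received 285 to 692 counts per library.

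**Figure D1:**
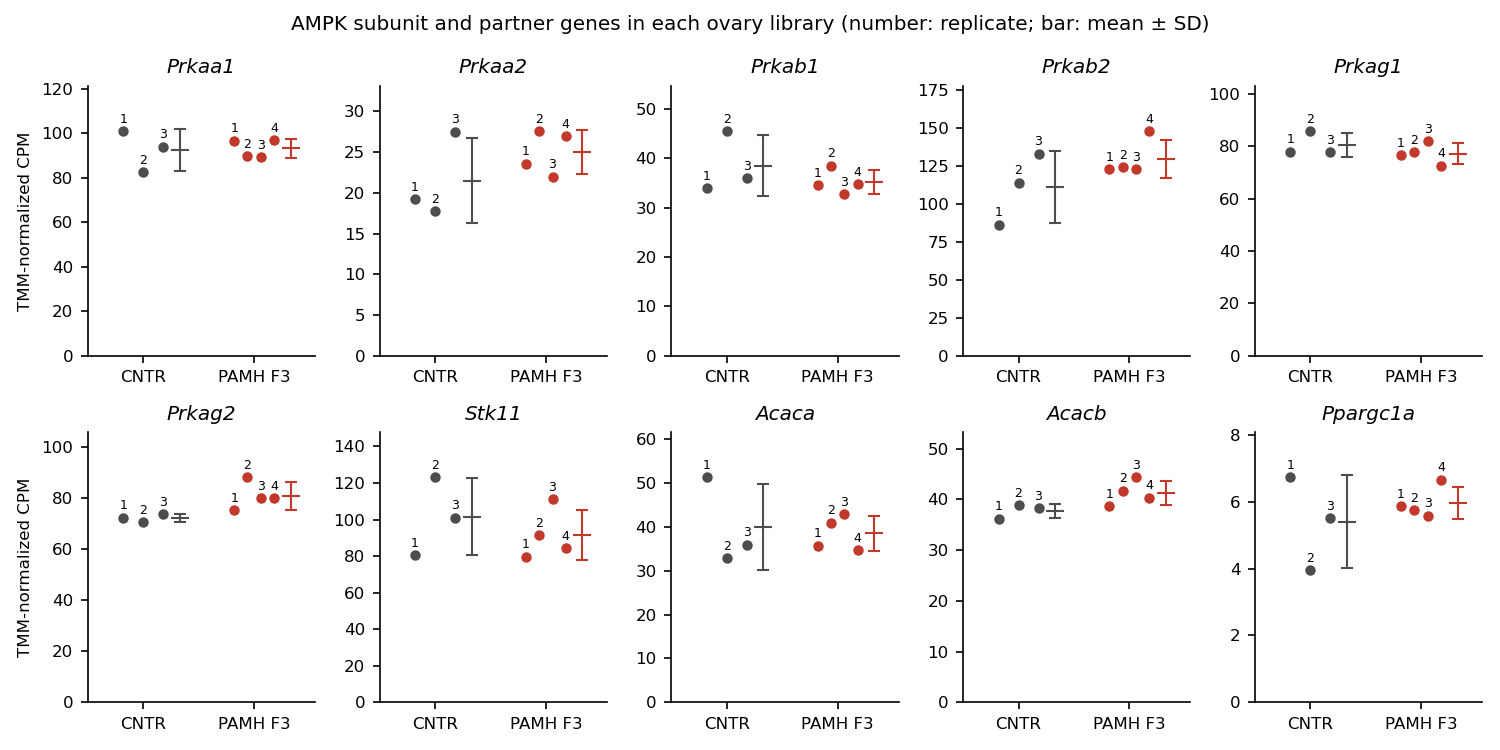
Each panel plots the CPM of one gene (vertical axis from 0) in the 3 CNTR and 4 PAMH F3 libraries, numbered by replicate, with a cross bar for the mean and error bars for the SD. Only the Prkag2 panel has groups that do not overlap, and the low Prkab2 point of 86.4 CPM and the high Acaca point of 51.2 CPM are both CNTR 1.

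The carboxylases make malonyl-CoA, the substrate for fatty acid synthesis and an inhibitor of mitochondrial fatty acid uptake. Acaca (ACC1, ENSMUSG00000020532, chr11:84129672-84401651, plus strand), the cytosolic form, was at 51.2, 32.8 and 35.9 CPM in CNTR and 35.7, 40.9, 42.9 and 34.6 CPM in PAMH F3. CNTR 1 was above all other libraries, and the remaining 6 overlapped. The log2 fold change was -0.14 (SE 0.10), but it was 0.19 without CNTR 1 and -0.22 without CNTR 2. With no surrogate variables it was -0.05 (SE 0.16).

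The 3 libraries with the most Acaca, CNTR 1, PAMH F3 3 and PAMH F3 2, were also the 3 with the highest adipocyte marker sums, at 1342, 893 and 715 CPM. Adipoq, the adipocyte hormone adiponectin, was at 185, 112 and 82.8 CPM in these libraries and at 20.2 to 59.7 CPM in the other 4. The same 3 libraries were highest for 4 of the 7 markers, and for Plin1, Plin4 and Cfd they were not. Scd1, a desaturase abundant in fat, was at 1189, 616 and 397 CPM in them, against 197 to 264 CPM in the rest, whereas Fasn, the fatty acid synthase, was at 420.4 CPM in CNTR 2 and only 369 CPM in PAMH F3 2. The oviduct epithelium marker sum was also highest in CNTR 1, PAMH F3 3 and PAMH F3 2, at 5356, 6491 and 4657 CPM. It was 2606 to 4142 CPM in the other 4. The part of adipocyte or oviduct epithelium RNA in the Acaca values was not tested. Among brown adipocyte markers, Ucp1 was too low to be tested.

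**Figure D2:**
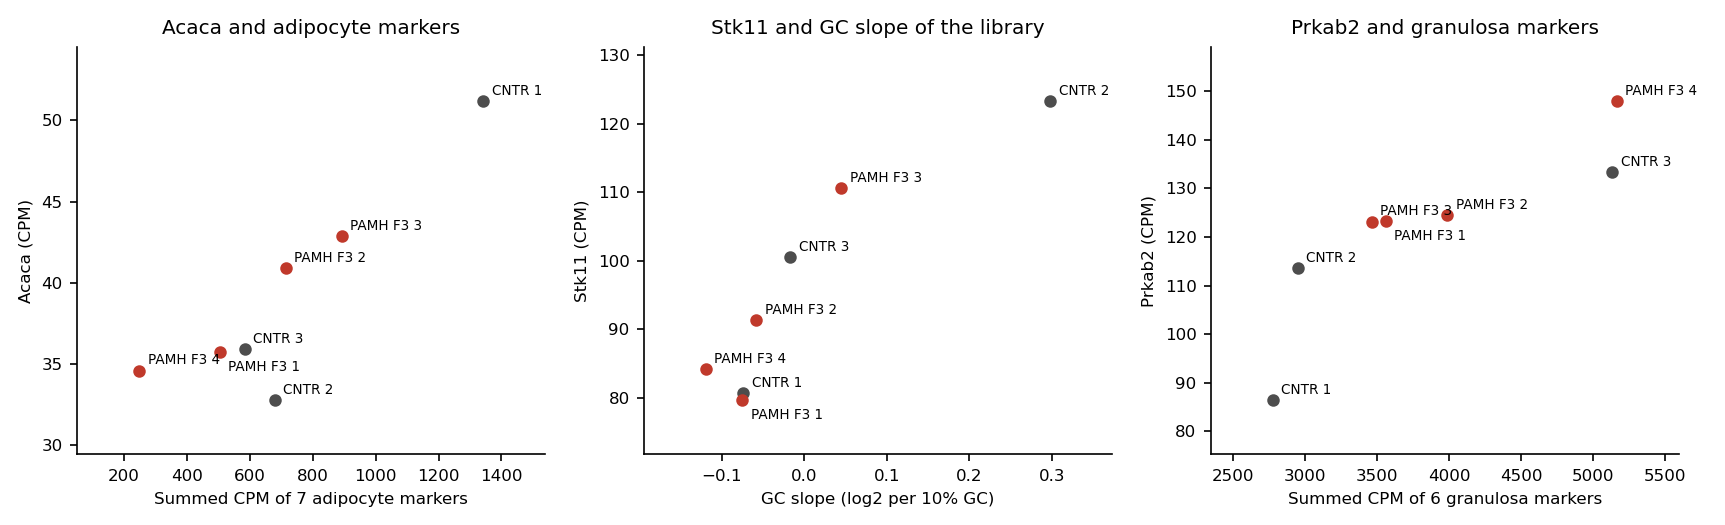
Acaca (CPM) against the summed CPM of 7 adipocyte markers (left), Stk11 (CPM) against the GC slope of the library in log2 per 10% GC (middle) and Prkab2 (CPM) against the summed CPM of 6 granulosa markers (right), 1 point per library, grey for CNTR and red for PAMH F3. CNTR 1 is at the upper right of the left panel (1342 and 51.2 CPM) and the lower left of the right panel (2777 and 86.4 CPM), and CNTR 2 is at the upper right of the middle panel (0.298 and 123 CPM).

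Acacb (ACC2, ENSMUSG00000042010, chr5:114146535-114250761, plus strand), the form at the outer mitochondrial membrane, was steadier. It was at 36.2, 38.9 and 38.2 CPM in CNTR and 38.6, 41.7, 44.3 and 40.3 CPM in PAMH F3. Only CNTR 2 and PAMH F3 1 were out of order between the groups. The log2 fold change was 0.16 (SE 0.07), ranged from 0.11 to 0.18 when single libraries were left out, and was positive in each of the 25 alternative fits. With no surrogate variables it was 0.13 (SE 0.08).

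Ppargc1a (ENSMUSG00000029167, chr5:51454250-51567726, minus strand) had the lowest level of the members, at 6.72, 3.96 and 5.51 CPM in CNTR and 5.87, 5.75, 5.58 and 6.65 CPM in PAMH F3. The PAMH F3 values lay within the range of the controls. Their log2 fold change was 0.04 (SE 0.14), and it moved to 0.35 without CNTR 1 and to -0.06 without CNTR 2. With no surrogate variables it was 0.14 (SE 0.19).

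Across the 10 genes, 5 had a positive and 5 a negative log2 fold change, with a median of 0.02 against 0.005 over all genes tested. With edgeR and adjustment over all genes, 0 of the 10 were called at 0.05, where 0% of all genes were called. At an unadjusted p under 0.05 the count was 1 of 10 (Prkab2), beside 7.64% of all genes. With no surrogate variables it was 0 of 10, beside 3.95%. DESeq2 (Wald test, same 2 surrogate variables) called 1 of 10, again Prkab2, beside 0.57%. Because the members were chosen with this contrast known, nothing is read from these counts. The sign was the same in each of the 25 alternative fits for 5 genes (Prkaa2, Prkab2, Prkag1, Prkag2 and Acacb) and changed in some of them for Prkaa1, Prkab1, Stk11, Acaca and Ppargc1a.

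**Figure D3:**
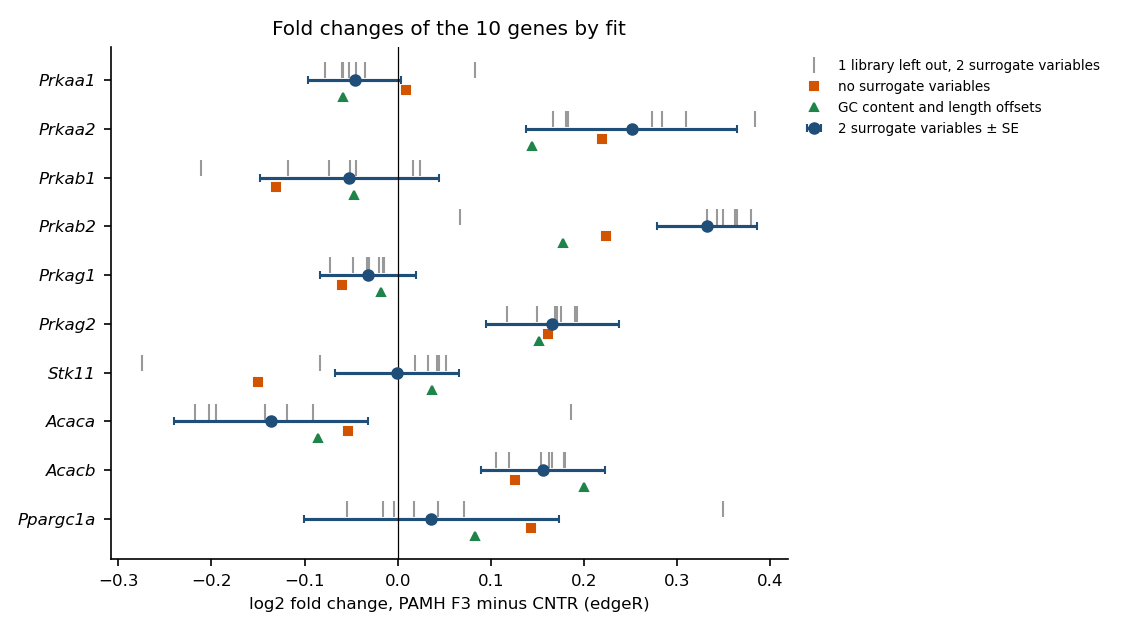
Log2 fold change (horizontal axis, PAMH F3 minus CNTR) of each gene in the edgeR fit with 2 surrogate variables (blue, bars are SE), with no surrogate variables (orange), with GC content and length offsets (green) and with each library left out in turn (grey ticks). The isolated grey ticks of Prkab2 at 0.07, Stk11 at -0.28, Acaca at 0.19, Prkaa1 at 0.08, Prkab1 at -0.21 and Ppargc1a at 0.35 are the fits without CNTR 1.

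Levels of different genes were compared within each library per kilobase of union exon length, the total of all annotated exon bases of a gene. This length can exceed that of any transcript, as for Acaca with 17074 bases against 9513 in its longest transcript, so the levels are approximate. Over the 7 libraries, Prkag1 was highest at 36.1 ± 1.93 CPM per kb (SD, n = 7), followed by Prkab2 at 23.9 ± 3.72, Stk11 at 20.9 ± 3.61 and Prkaa1 at 19.96 ± 1.36. The ranges of Prkab2 and Stk11, and of Stk11 and Prkaa1, overlapped. Prkab1 and Prkag2 came next, at 11.9 ± 1.41 and 11.9 ± 0.93 CPM per kb, and could not be ranked. Acacb at 4.13 ± 0.27, Prkaa2 at 2.95 ± 0.51, Acaca at 2.29 ± 0.38 and Ppargc1a at 0.87 ± 0.14 CPM per kb were lowest, and the ranges of Prkaa2 and Acaca overlapped. The order depended on the divisor. By coding length Prkab2 ranked 1 and Prkag1 2, by median transcript length Prkab2 ranked 5 and Prkag2 2, and Ppargc1a ranked 10 by each of the 5 lengths.

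**Figure D4:**
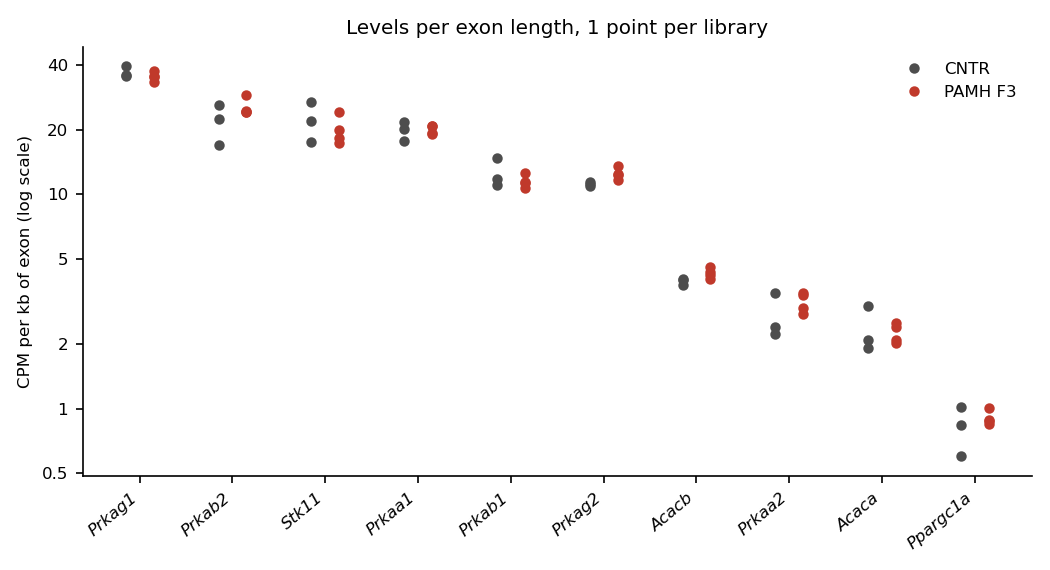
Level of each gene in CPM per kb of exon (vertical log axis), 1 point per library, CNTR in grey and PAMH F3 in red, ordered by the mean over 7 libraries. Prkag1 lies highest, near 36.1 CPM per kb, and Ppargc1a lowest, near 0.87 CPM per kb.

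This comparison between paralogs does not use the contrast between the groups, and 4 pairs were tested with an exact sign-flip permutation test over the 7 libraries (two-sided, smallest possible p 0.0156). The p-value of this test covers the spread between libraries only. A gene length used as divisor shifts every library alike, so the test alone cannot show which gene of a pair was higher. Prkaa1 was 6.83-fold above Prkaa2 per kilobase, a log2 difference of 2.77 ± 0.25 (SD, n = 7). The gamma pair differed by 1.60 ± 0.15 on the log2 scale, with Prkag1 3.03-fold above Prkag2. Both differences had the same direction in 7 of 7 libraries (exact permutation p = 0.0156, adjusted over 4 pairs 0.0156), and the mean kept its direction under each of the other gene lengths tried. The sizes moved, however: the log2 difference of the alpha pair was 1.98 per coding length, and that of the gamma pair was 1.04 per longest transcript, 0.81 per coding length and 0.24 per median transcript.

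For the beta pair, Prkab2 was 1.99-fold above Prkab1 in level per kilobase, a log2 difference of 0.99 ± 0.29 (SD) in the same direction in 7 of 7 libraries (exact permutation p = 0.0156, adjusted p = 0.0156). It was 0.47 per longest transcript and 1.72 per coding length, and with median transcript length as the divisor it was -0.01. The median annotated transcript of Prkab1 has 808 bases and its longest coding sequence 810, so this divisor includes incomplete transcripts. For the carboxylases, Acaca was below Acacb by a log2 difference of -0.86 ± 0.25 (SD) in 7 of 7 libraries (exact permutation p = 0.0156, adjusted p = 0.0156). This order was set by the divisor: the log2 difference was 0.03 per coding length, -0.15 per longest transcript, -0.36 per 50-base window unique to the gene and 2.62 per median transcript, which for Acaca has 1058 bases against a coding sequence of 7035. Which carboxylase gene was higher could therefore not be settled.

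Shares within each pair, by union exon length, put the levels on a common scale. Prkab2 made up 60.5%, 60.0% and 69.0% of beta subunit CPM per kb in CNTR and 68.2%, 66.1%, 69.4% and 71.9% in PAMH F3. CNTR 3 lay within the PAMH F3 range and the other 2 controls below it, and the means were 63.2% ± 5.05 (SD, n = 3) and 68.9% ± 2.44 (SD, n = 4). Prkaa2 made up 9.97%, 11.2% and 14.6% of the alpha total in CNTR and 12.5%, 15.3%, 12.6% and 14.0% in PAMH F3, again with CNTR 3 among the PAMH F3 values.

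For the gamma pair, the Prkag2 share was 23.8%, 21.7% and 24.2% in CNTR and 24.9%, 27.6%, 24.7% and 27.0% in PAMH F3. These groups did not overlap, and the means were 23.2% ± 1.36 (SD, n = 3) and 26.0% ± 1.46 (SD, n = 4). The share is built from the Prkag2 values, whose groups were also separate, so it is not an independent result. Nothing is read from it because the contrast was used in the choice of the members. Acacb made up 55.6%, 67.8% and 65.3% of the carboxylase total in CNTR and 64.4% to 67.4% in PAMH F3, with CNTR 1 alone below the rest. The size of these shares depended on the divisor: over the 7 libraries the mean Acacb share was 64.4%, but 49.5% by coding length and 14.1% by median transcript length, and the mean Prkag2 share was 24.8%, 36.4% and 45.9% by the same lengths. The summed level of each subunit class overlapped between the groups: alpha was 22.6 ± 2.32 and 23.2 ± 1.03 CPM per kb, beta 34.3 ± 5.48 and 36.9 ± 2.49, and gamma 48.2 ± 1.92 and 48.0 ± 2.05 (means ± SD of CNTR, n = 3, and PAMH F3, n = 4).

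**Figure D5:**
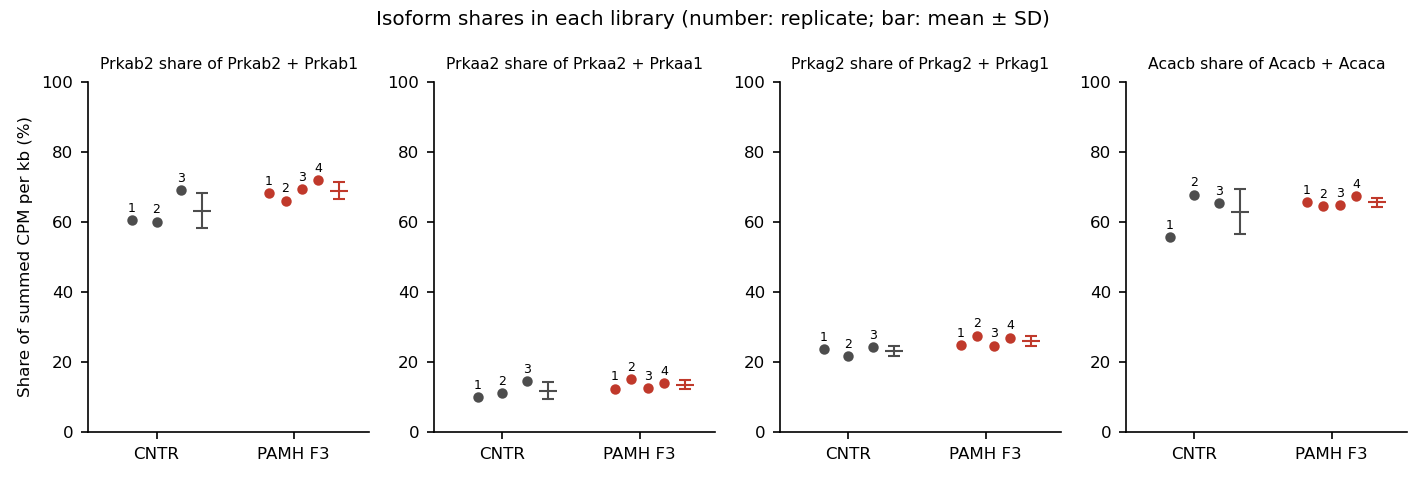
Share (%) of one gene in the summed CPM per kb of its paralog pair, for each of the 3 CNTR and 4 PAMH F3 libraries, numbered by replicate, with the mean and SD. The Prkag2 panel has groups that do not overlap (21.7% to 24.2% and 24.7% to 27.6%), and in the Acacb panel CNTR 1 lies apart at 55.6%. Nothing is read from the Prkag2 separation, which restates that of the gene itself.

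The pattern of Prkab2 over the 7 libraries was compared with that of every tested gene. The 5 genes with the highest Pearson correlation of log2 CPM were Gm45148 (r = 0.990), AI854703 (0.978), Mrap2 (0.976), Stx16 (0.972) and Pigv (0.971). All 5 were lowest in CNTR 1 and highest in PAMH F3 4, as Prkab2 was. This largely follows from picking them for their likeness to Prkab2 among 18779 tested genes, so nothing is read from it. Mrap2, an accessory protein of melanocortin receptors, ranged only from 0.51 to 1.44 CPM, and Gm45148 was as low. Among the other 9 members, Prkaa2 had the highest correlation with Prkab2 (r = 0.73) and Acaca the lowest (r = -0.72). These coefficients come from 7 libraries that share depth and composition effects and are given as a description.

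The wider pathway was described with 6 lists of genes that act around AMPK, 88 genes outside the members and Prkag3, of which 87 were tested. With edgeR and adjustment over all genes, 0 of the 87 were called, and DESeq2 with the same surrogate variables called 0. At an unadjusted p under 0.05, 2 were higher and 5 lower in PAMH F3, 7 of 87 in all, beside 7.64% of all genes. With no surrogate variables this count was 2 of 87, beside 3.95%. The median log2 fold change over the 87 was -0.03, against 0.005 over all genes. Groups did not overlap for 2 of the 87 (Brsk1 and Elovl5), both with PAMH F3 lower, beside 2.4% of all genes. With PAMH F3 higher the count was 0, beside 1.85% of all genes. Nothing is read from the separation of these 2 genes, which was near the share over all genes. The counts for each list below use the same cut-off, which 7.64% of all genes met. Nothing is read from those counts either.

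Upstream of AMPK, among 14 genes of the LKB1 complex and other regulators, 0 were higher and 1 lower at an unadjusted p under 0.05. That gene was Sesn3, a stress-induced activator of AMPK signalling, with a log2 fold change of -0.31 (edgeR adjusted p = 0.599), or -0.16 with no surrogate variables (edgeR adjusted p = 0.997). Its values were 354, 220 and 224 CPM in CNTR and 300, 212, 194 and 249 CPM in PAMH F3, which overlapped. The LKB1 partner Stradb and the adiponectin receptor gene Adipor2 had log2 fold changes of 0.12 and -0.12.

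Among 13 AMPK-related kinases, which LKB1 also phosphorylates for the most part, 0 were higher and 2 lower at an unadjusted p under 0.05. Of all genes, 7.64% met this cut-off. With no surrogate variables the count was 1 of the 13, beside 3.95% of all genes. Nuak1 was at 54.7, 34.3 and 24.0 CPM in CNTR and 41.5, 20.4, 18.02 and 18.47 CPM in PAMH F3. PAMH F3 1 lay among the controls and the other 3 below them. The log2 fold change was -0.80 (SE 0.29, edgeR adjusted p = 0.612). Leaving out PAMH F3 1, the library highest for Nuak1 in its group, gave -1.09 with an edgeR adjusted p of 0.0481, in a fit that called 37 genes in all. The same libraries with no surrogate variables gave -0.99 (edgeR adjusted p = 0.790), and leaving out CNTR 1 gave -0.24 (edgeR adjusted p = 0.802). Brsk1, better known from neurons, was at 8.08, 11.8 and 8.79 CPM in CNTR and 6.35 to 7.74 CPM in PAMH F3. No PAMH F3 library reached the lowest control, and the log2 fold change was -0.38 (edgeR adjusted p = 0.651). Sik1 had a log2 fold change of -0.27.

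Of 17 tested genes of fatty acid synthesis and oxidation (Cpt1b, the muscle carnitine palmitoyltransferase, was too low), 0 were higher and 1 lower at an unadjusted p under 0.05. Elovl5, an elongase of polyunsaturated fatty acids downstream of the carboxylases, was at 567, 542 and 577 CPM in CNTR and 524, 434, 474 and 427 CPM in PAMH F3. All PAMH F3 values lay below all controls, and the log2 fold change was -0.29 (SE 0.09, edgeR adjusted p = 0.560). Scd1 had a log2 fold change of -0.73 (edgeR adjusted p = 0.670), but its groups overlapped and CNTR 1 lay far above the rest at 1189 CPM.

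Cpt2, which regenerates acyl-CoA inside mitochondria, had a log2 fold change of -0.20. Srebf1, a transcription factor for lipogenic genes, is named after its values were seen. Its log2 fold change was -0.08 over all libraries (edgeR adjusted p = 0.804) and -0.34 with no surrogate variables (edgeR adjusted p = 0.997). Without CNTR 1 it was -0.50 (edgeR adjusted p = 0.0487) in a fit that called 39 genes, and with no surrogate variables in those libraries it was -0.55 (edgeR adjusted p = 0.563). Without CNTR 2 it turned to 0.04.

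Downstream, among 13 genes of mTORC1 signalling and autophagy, 1 was higher and 0 lower at an unadjusted p under 0.05. This was Tsc1, a brake on mTORC1, at 72.2, 81.0 and 76.5 CPM in CNTR and 84.4, 82.1, 79.9 and 89.5 CPM in PAMH F3 (log2 fold change 0.16, edgeR adjusted p = 0.640). Only CNTR 2 exceeded the lowest PAMH F3 library. Its partner Tsc2, a direct AMPK substrate, had a log2 fold change of 0.08, and the autophagy kinase gene Ulk2 of -0.08, or -0.03 with no surrogate variables.

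None of the 16 genes of the PGC-1 family and mitochondrial biogenesis had an unadjusted p under 0.05 (edgeR), and 0 were called by DESeq2. Esrrg, an orphan receptor that works with PGC-1alpha, was at -0.28 (-0.17 with no surrogate variables), the mitochondrial deacetylase gene Sirt3 at 0.10 and the mitochondrial polymerase gene Polg at 0.07 or, with no surrogate variables, 0.04 (log2 fold changes).

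Among 14 genes of glucose uptake and glycolytic control, 1 was higher and 1 lower at an unadjusted p under 0.05. Tbc1d4 (AS160), which holds glucose transporter vesicles back until it is phosphorylated, was at 62.7, 63.5 and 68.7 CPM in CNTR and 67.3, 72.4, 74.2 and 72.6 CPM in PAMH F3. Only CNTR 3 and PAMH F3 1 were out of order, and the log2 fold change was 0.16 (edgeR adjusted p = 0.631). The paralog Tbc1d1 had a log2 fold change of -0.16. Pfkfb4, which sets the level of the glycolytic activator fructose bisphosphate, was at 33.1, 34.6 and 37.8 CPM in CNTR and 31.9, 29.8, 28.2 and 33.3 CPM in PAMH F3 (log2 fold change -0.18, edgeR adjusted p = 0.618).

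Cell type markers were set beside these values. Granulosa cell markers summed to 2777 to 5133 CPM in CNTR and 3465 to 5166 CPM in PAMH F3 and luteal markers to 5803 to 7833 and 4281 to 6830 CPM, so markers of ovarian cells were abundant in both groups. Theca (Insl3 too low to be tested), oocyte, leukocyte, endothelial and brown adipocyte sums overlapped between the groups. Oviduct epithelium markers, at 3018 to 5356 and 2606 to 6491 CPM, were present in every library. Their part in the levels of the members was not tested.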

How the data were processed

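RNA was measured in whole ovaries from 3 CNTR and 4 PAMH F3 mice. Per the labels and the methods of the study, the authors made polyA-selected TruSeq Stranded libraries, demultiplexed 50-base single reads with bcl2fastq 2.17.1.14, aligned them to mm10 with STAR 2.5.3a and deposited unnormalized read counts per Ensembl gene from HTSeq 0.6.1p1. The Ensembl release and the strand setting of the counting are not given in the sources used here. The labels give the injections as subcutaneous and the methods as intraperitoneal. Rows that name no gene were left out of the totals. Of the sum of all rows, the row for alignments that were not unique made up 37.7 to 40.7% and reads outside genes 5.82 to 7.37%. The first row may count the same read more than once, so it is not given as a share of reads. Of 55487 gene rows, 55394 matched GENCODE M21.

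The counts were scaled with TMM factors over all gene rows, filtered with filterByExpr (minimum count 10) and fitted with the edgeR 4.0.16 quasi-likelihood test in R 4.3.3, with 2 surrogate variables from sva 3.50.0 (the study also modelled unwanted variation found with sva, and the number it used is not given in the sources used here), and Benjamini-Hochberg adjustment over 18779 genes at 0.05. DESeq2 1.42.0, other numbers of surrogate variables, size factors, filters, GC content and length offsets, the replicate number as a block and fits without each library were alternatives. The scripts were tested on simulated data. The members and lists were chosen with earlier results of these data known. Named genes were the 10 members, Prkag3, the 3 genes of each list with the smallest edgeR p and the 5 genes most correlated with Prkab2 in log2 CPM (prior count 2). Exon lengths and sequences came from GENCODE M21. Same-numbered libraries of the groups did not deviate together (correlations 0.096, 0.097 and -0.248), so the numbers were not used as pairs.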

Additional observations from a re-analysis of the deposited data

Results flagged for a closer look

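In 5 of 34 named genes, 1 PAMH F3 library lay far from the other 3 (Dixon's criterion for 4 samples, which chance alone meets in about 1 in 20 groups). Over all 18779 tested genes 4.86% met it. Because 24 of the 34 were not picked at random but for a small p, for their likeness to Prkab2 or as Prkag3, no rate is read from the count. Prkab2 was at 148 CPM in PAMH F3 4, against 123 to 124 CPM in the others. Stx16 was at 113 CPM in the same library, against 108 to 109 CPM, and was named for its likeness to Prkab2. Esrrg was at 7.09 CPM in PAMH F3 4, against 5.61 to 5.77 CPM. Nuak1 was at 41.5 CPM in PAMH F3 1, against 18.02 to 20.4 CPM. The leukocyte marker sum was also highest of the group in that library, at 449 CPM against 224 to 308 CPM. So were the endothelial sum, at 236 CPM against 154 to 189 CPM, and the luteal sum, at 6830 CPM against 4281 to 5734 CPM. In CNTR 1, 2 and 3, Nuak1 was at 54.7, 34.3 and 24.0 CPM and the leukocyte sum at 359, 336 and 363 CPM. The endothelial sum was there at 228, 186 and 206 CPM and the luteal sum at 5803, 6421 and 7833 CPM. The part of these cell types in the Nuak1 value was not tested. Prkag3 was at 0.139 CPM in PAMH F3 3, against 0.361 to 0.376 CPM, from few reads.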

How the results depend on the processing

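The number of genes called between the groups was 0 with edgeR and 2 surrogate variables, 107 with DESeq2 and the same variables, 6 with DESeq2 without them, 8 with no filter on low counts, and 0 to 39 when single libraries were left out (39 without CNTR 1 and 37 without PAMH F3 1). Without surrogate variables, leaving out single libraries gave 0 to 2. Members called were 0, or 1 with DESeq2 and 2 surrogate variables, and pathway genes called were 0 to 1 when single libraries were left out. The median log2 fold change of the members was 0.017 and moved to 0.068 with 0 surrogate variables, 0.066 with 1, 0.069 with DESeq2 without them and 0.067 with the replicate block, which called 0 genes. It ran from 0.009 to 0.094 when single libraries were left out and without surrogate variables from 0.010 (without CNTR 2) to 0.091 (without CNTR 1), with 0.077 without CNTR 3, 0.071 without PAMH F3 1, 0.072 without PAMH F3 2, 0.060 without PAMH F3 3 and 0.044 without PAMH F3 4. The fits with neither surrogate variables nor a given library, and the length alternative of unique 50-base windows, were chosen after seeing the data. The Prkab2 to Prkab1 level difference was -0.014 by median transcript length. The Acaca to Acacb difference was 2.624 by median transcript length, 0.028 by coding length and -0.149 by longest transcript. The Prkab2 and Prkaa2 shares kept their direction, with group differences of 4.15 to 8.63 and 0.65 to 2.98 percentage points when single libraries were left out. The cause of these changes was not tested.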
